A study of Mus musculus with 12 samples.

Results

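The 9 genes described here act in plasminogen activation and in blood coagulation: Plau, Plaur, Plat, F3, F10, Thbd, Procr, Proc and Pros1. They were chosen by function, with earlier results of these data known. By mouse gene symbol, each matched 1 of the 49315 genes in the count table. All 9 were among the 18702 genes that passed the filter on low counts and were tested. RNA was measured in epididymal white adipose tissue (eWAT) by bulk RNA-seq, with 12 libraries in 4 groups of 3. Flox mice carry Mir181a2b2 flox/flox and are the controls, while KO mice (Mir181a2b2-/-) lack the locus in all cells, so that no cell type was targeted. All 12 animals were male, received a high-fat diet (HFD, 60% fat) for 12 weeks and were injected into the peritoneum once a week with vehicle or with methotrexate (MTX) at 1 mg/kg. Their age is not given in the sources used here. Groups are named flox vehicle, KO vehicle, flox MTX and KO MTX, and libraries by the replicate number of their title.

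Plau encodes urokinase (uPA) and Plat encodes tissue plasminogen activator, the proteases that turn plasminogen into plasmin, which dissolves fibrin and degrades matrix. Plaur encodes the receptor that holds urokinase at the surface of macrophages and other cells. F3 encodes tissue factor, which starts coagulation with factor VII, and F10 encodes factor X, whose active form generates thrombin. Thbd (thrombomodulin) and Procr (the endothelial protein C receptor) sit on endothelium and other cells and turn thrombin towards activation of protein C, the product of Proc, for which protein S, the product of Pros1, is a cofactor. Protein S is also a ligand of the receptors Tyro3 and Mertk on phagocytes. In obese adipose tissue, macrophages, endothelium and stromal cells are all possible sources of such transcripts.

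The deleted locus encodes miR-181a-5p and miR-181b-5p, which share a seed, and their sequences are shown because the deleted locus makes them. It also encodes miR-181a-2-3p and miR-181b-2-3p, which have other seeds, are made from no other locus and are not shown. Both 5p sequences are given 5′ to 3′ as RefSeq lists them for GRCm38.p6, with the seed (bases 2 to 8) in capitals. Each of these 5p sequences is also encoded by 1 further locus that the KO leaves in place.
mmu-miR-181a-5p (chr2:38852741-38852763, + strand): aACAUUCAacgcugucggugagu
mmu-miR-181b-5p (chr2:38853845-38853868, + strand): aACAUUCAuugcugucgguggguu
The precursors Mir181a-2 and Mir181b-2 had 0 counts in 11 and in 12 of the 12 libraries. Flox MTX replicate 4 alone held reads of Mir181a-2 (2 counts), so these libraries could not check the deletion.

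Seed matches in the 3′ UTR were searched in the longest GENCODE M21 UTR of each gene, as TGAATGT (7mer-m8), GAATGTA (7mer-A1) or both joined (8mer), on the transcribed strand. Plau held 1 match to this seed of the 5p forms and Pros1 held 2, and the other 7 genes held 0. Seeds of the 3p forms were not searched. The 2 of 9 genes with a match are 22.2%, against 20.9% of 20988 protein-coding genes with a 3′ UTR. The sites are shown with their flanks because they are the only matches among the 9 genes, with the matching bases in capitals and coordinates on GRCm38.
Plau 8mer (chr14:20843103-20843126, + strand): gctccacgTGAATGTAtcattccc
Pros1 first 7mer-m8 (chr16:62928815-62928838, + strand): gcagcacaTGAATGTtgtctcaat
Pros1 second 7mer-m8 (chr16:62929028-62929051, + strand): aggtggctTGAATGTgattgttaa
A match describes letters in the UTR and was not tested as a target site.

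Depth ranged from 19495310 to 23976469 counts per library, with a median of 21824170. The TMM factor of edgeR, which corrects for differences in composition, was between 0.884 and 1.09 in 11 libraries and was 0.821 in flox MTX replicate 4. Levels are CPM, the share of a gene in the TMM-scaled library, and levels compared between genes are TPM, which divides by exon length. Group values are the mean ± SD over 3 mice. A gene was called when its adjusted p (Benjamini-Hochberg, over all 18702 genes, edgeR quasi-likelihood test) was below 0.1 and its fold change was at least 1.5. An exact permutation test of 3 libraries against 3 cannot give a two-sided p below 0.1. Adipocyte genes marked the tissue in every library, with summed levels of 14268 to 46337 CPM over 10 markers including Fabp4. In bulk tissue, more cells of a type and more RNA per cell cannot be told apart.

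Under vehicle, 6 of the 9 members were higher in KO than in flox eWAT and 1 was lower. Plaur, F10, Procr, Plau, Pros1 and Plat rose, Proc fell, and F3 and Thbd did not pass the test. Of all genes tested, 13.9% were called higher in this comparison and 17.8% lower. The share of all genes tested whose vehicle groups do not overlap was not computed. A lack of overlap under vehicle is therefore given below only as a description of each gene. The median log2 fold change of the members was 1.06, against −0.06 over all genes tested. The plot of CPM by library shows the levels of each gene, and the plot of fold changes shows the intervals.

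**Figure D1:**
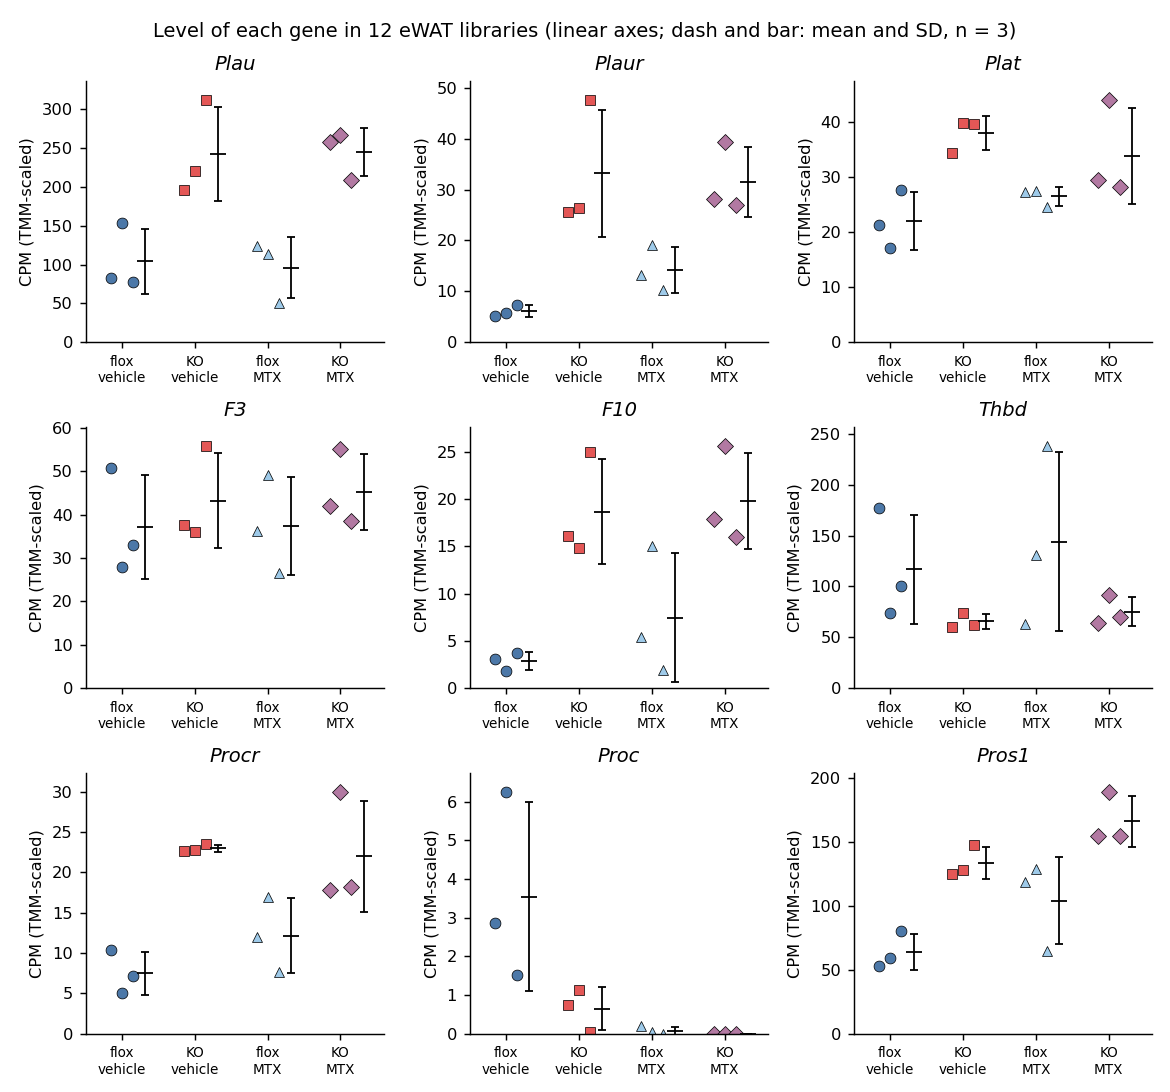
Level of the 9 genes in CPM (vertical axes, linear from 0) in the 12 eWAT libraries, with 1 symbol per library in the groups flox vehicle, KO vehicle, flox MTX and KO MTX, and the mean and SD (n = 3) beside them. Plau, Plaur, Plat, F10, Procr and Pros1 lie higher in the 3 KO vehicle libraries than in the 3 flox vehicle libraries, and Proc was at 0 in the 3 KO MTX libraries. The share of all genes tested that lie apart under vehicle was not computed.

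**Figure D2:**
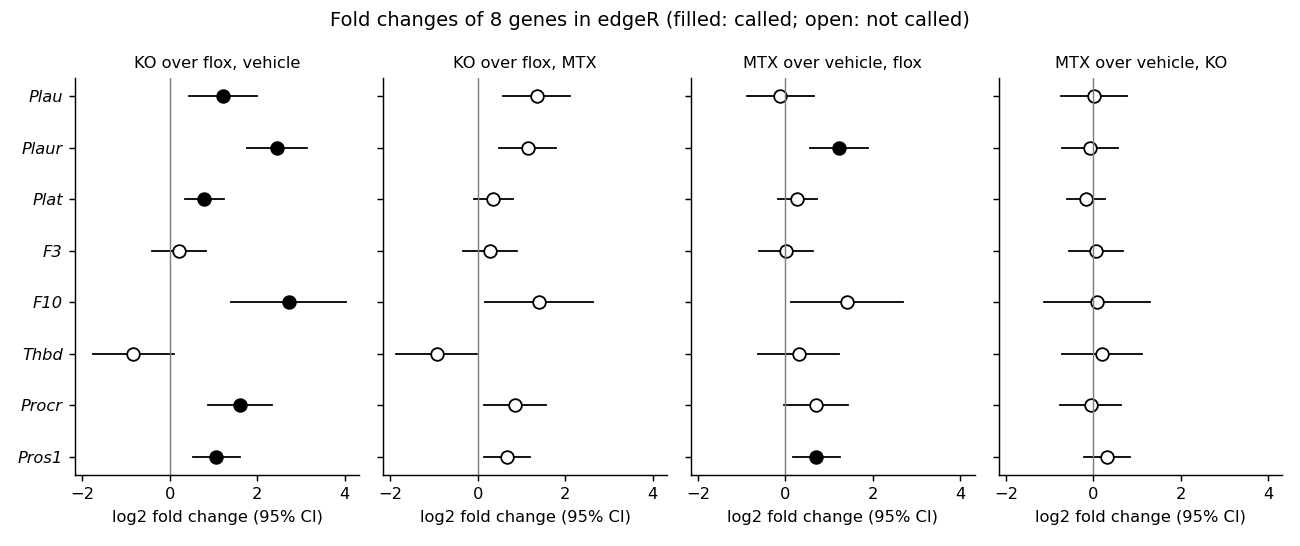
Log2 fold change with its 95% confidence interval (horizontal axes) for 8 of the genes in 4 comparisons, from the edgeR fit over 12 libraries, with filled circles for called genes. Under vehicle 6 circles right of 0 are filled, under MTX none is, and Proc is left out because its counts reach 0.

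All 3 genes of plasminogen activation among the members rose in KO mice under vehicle, Plaur most and Plat least. Plau (ENSMUSG00000021822, chromosome 14, 20836660 to 20843385 on the + strand of GRCm38) had 82.1, 152.9 and 77.8 CPM in flox vehicle replicates 1, 3 and 4. In KO vehicle replicates 1, 2 and 3 it had 196.0, 220.3 and 311.6 CPM. Every KO vehicle library lay above every flox vehicle library, and flox vehicle replicate 3 stood apart upwards within its group. The mean rose from 104 ± 42.2 to 243 ± 61.0 CPM, a log2 fold change of 1.22 (SE 0.35, edgeR adjusted p = 0.0240). Under MTX, Plau had 123.7, 113.5 and 50.9 CPM in flox replicates 1, 2 and 4, and 258.3, 266.8 and 209.0 CPM in KO replicates 2, 3 and 4. These groups did not overlap either, with flox MTX replicate 4 the lowest of the 12 libraries. The log2 fold change under MTX was 1.35 (SE 0.35, 95% interval 0.57 to 2.12), but its adjusted p in edgeR was 0.104. MTX itself left a log2 difference in Plau of −0.12 (95% interval −0.88 to 0.64) in flox mice and of 0.01 (−0.75 to 0.77) in KO mice, neither of which passed the test, and leaving out single libraries turned the sign of both.

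Plaur (ENSMUSG00000046223, chromosome 7, 24462484 to 24475968, + strand) was the gene of the group with the smallest p in the KO comparison under vehicle. It had 5.12, 5.66 and 7.39 CPM in the flox vehicle libraries and 25.5, 26.4 and 47.5 CPM in the KO vehicle libraries. The lowest KO library was above the highest flox library, and KO vehicle replicate 3 was the highest of all 12. The level rose from 6.06 ± 1.18 to 33.2 ± 12.4 CPM, a log2 fold change of 2.45 (SE 0.31, edgeR adjusted p = 0.00276). With MTX, flox libraries reached 13.2, 19.1 and 10.3 CPM and KO libraries 28.1, 39.3 and 27.0 CPM, so that flox MTX lay between the flox vehicle and the KO libraries without overlap. Of all genes tested, 8.09% were called higher and 16.1% lower with MTX in flox mice, and Plaur was among the 3 members called there, with a log2 fold change of 1.23 (SE 0.30, edgeR adjusted p = 0.0195).

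Between KO and flox mice under MTX, Plaur had a log2 difference of 1.15 (SE 0.30, edgeR adjusted p = 0.104), and MTX in KO mice gave −0.08 (95% interval −0.72 to 0.57). The interaction of genotype and MTX, which tests that change in the difference, was −1.31 on the log2 scale (95% interval −2.23 to −0.38, edgeR adjusted p = 0.194). It was not called, and neither was that of any other member, while 0.989% of all genes tested were called. Plaur was the 1 member of 9 with an unadjusted interaction p below 0.05 in edgeR, as 15% of all genes tested had. DESeq2 called it, with an adjusted p of 0.0842, and called 3.54% of the genes it tested. The comparisons of KO vehicle and of flox MTX with flox vehicle share the same 3 flox vehicle libraries, and so does the interaction.

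Plat (ENSMUSG00000031538, chromosome 8, 22757727 to 22782844, + strand) had the smallest fold change of the 6 genes that rose. Its levels were 21.3, 17.2 and 27.7 CPM in flox vehicle and 34.4, 39.9 and 39.7 CPM in KO vehicle libraries, without overlap. The log2 fold change was 0.78 (SE 0.20, edgeR adjusted p = 0.0148). In the MTX groups it had 27.4, 27.5 and 24.6 CPM in flox and 29.4, 44.0 and 28.2 CPM in KO libraries, which did not overlap but lay close, at a log2 difference of 0.35 (95% interval −0.09 to 0.80, edgeR adjusted p = 0.302).

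Per length, Plau was the most abundant of the 9 genes in each of the 4 groups, at 128 ± 53.4 TPM in flox vehicle and 287 ± 60.9 TPM in KO vehicle libraries. In flox vehicle eWAT it was followed by Thbd (90.3 ± 39.4 TPM), from which it did not differ beyond the spread, and then by Pros1 (45.3 ± 10.7) and F3 (42.4 ± 12.7), which did not differ from each other either. The remaining 5 genes, from Procr at 10.7 ± 3.55 TPM down to F10 at 3.0 ± 0.99 TPM, each overlapped with their neighbour in the order. In KO vehicle eWAT, Plau and then Pros1 (91.6 ± 5.77 TPM) were each clear of the next gene, Thbd, F3, Plaur and Procr followed at 49.7 ± 8.57 to 31.9 ± 1.46 TPM with overlapping neighbours, and Plaur stood at 35.3 ± 11.5 TPM. Proc was last, at 0.76 ± 0.67 TPM. In both MTX groups Plau, Pros1, Thbd and F3 were again the 4 highest and Proc the lowest.

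Of the genes that promote coagulation, F10 rose in KO mice under vehicle and F3 did not pass the test in any comparison. F10 (ENSMUSG00000031444, chromosome 8, 13037308 to 13056676, + strand) had 3.04, 1.81 and 3.65 CPM in flox vehicle libraries and 16.1, 14.8 and 25.0 CPM in KO vehicle libraries. Every KO library was above every flox library. The level rose from 2.83 ± 0.936 to 18.6 ± 5.56 CPM, a log2 fold change of 2.72 (SE 0.60, edgeR adjusted p = 0.00698). Under MTX, F10 had 5.39, 15.04 and 1.94 CPM in flox libraries and 17.9, 25.6 and 15.99 CPM in KO libraries. The flox MTX libraries were spread from the flox vehicle level to nearly that of the KO libraries, with replicate 2 the high one and replicate 4 the low one. The genotype difference there was 1.40 on the log2 scale (SE 0.56, edgeR adjusted p = 0.164) and became 2.42 (adjusted p = 0.0277) without flox MTX replicate 2. The difference between MTX and vehicle in flox mice, 1.41 (SE 0.58, edgeR adjusted p = 0.112), became 1.86 (adjusted p = 0.0224) without flox MTX replicate 4.

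F10 lies between F7, the gene of factor VII (13026034 to 13035809), and Proz, the gene of the vitamin K-dependent protein Z (13060914 to 13076026), all on the + strand of chromosome 8. F7 had 5.29, 2.99 and 6.37 CPM in flox vehicle and 45.5, 38.1 and 65.4 CPM in KO vehicle libraries, so the KO libraries were all above the flox libraries. Its log2 fold change was 3.35 (SE 0.76, edgeR adjusted p = 0.00836). Under MTX, F7 ranged from 1.44 to 33.9 CPM in flox and from 53.9 to 71.6 CPM in KO libraries. Proz, the neighbour on the other side, had 1.13 to 2.35 CPM in flox vehicle and 2.08 to 3.94 CPM in KO vehicle libraries, which overlapped, with a log2 difference of 0.79 (SE 0.38, edgeR adjusted p = 0.147). The ratio of F7 to F10 in TPM was 2.56, 2.43 and 2.57 in flox vehicle libraries and 4.16, 3.77 and 3.84 in KO vehicle libraries, without overlap (not tested).

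Gene starts listed by RefSeq were available for 5 of the 9 genes (Plaur, F3, F10, Procr and Pros1), and the windows of Plaur and F10 are shown because these genes rose most. Motifs were searched on both strands and matches are in capitals. The AP-1 motif was written TGANTCA, and 7.81% of the 32851 promoters in the RefSeq table held it. The GC box was written GGGCGG, which 35.7% of the promoters held on either strand. The PU.1 motif was written GAGGAA, with a share of 28.3% of the promoters. The TATA box was written TATAAA, with a share of 13.6%, and an NF-kappaB motif had a share of 4.51%. Matches of neighbouring GC boxes in Plaur overlap.
Plaur (chr7:24462233-24462532, + strand, GRCm38.p6): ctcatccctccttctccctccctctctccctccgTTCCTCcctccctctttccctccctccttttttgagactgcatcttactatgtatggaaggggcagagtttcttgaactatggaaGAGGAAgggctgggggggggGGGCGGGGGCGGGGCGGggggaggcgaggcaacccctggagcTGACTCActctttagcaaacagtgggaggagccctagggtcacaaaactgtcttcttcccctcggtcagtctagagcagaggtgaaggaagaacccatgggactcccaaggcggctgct
F10 (chr8:13037058-13037357, + strand, GRCm38.p6): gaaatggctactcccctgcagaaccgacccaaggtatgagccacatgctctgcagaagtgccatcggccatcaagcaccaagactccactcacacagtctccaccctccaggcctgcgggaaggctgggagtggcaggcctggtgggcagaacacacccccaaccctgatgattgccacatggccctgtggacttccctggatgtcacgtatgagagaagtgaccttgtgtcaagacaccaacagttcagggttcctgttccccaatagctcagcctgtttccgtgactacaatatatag
Plaur held 1 AP-1 match at −69 from its start, 3 GC boxes at −111, −105 and −100 and 2 PU.1 matches at −216 and −131, and F10 held none of the motifs. F3, which did not pass the test, held 2 AP-1 matches and 3 GC boxes. Its 1 match to TATAAA was on the opposite strand at position 44, past the gene start. Procr held 1 AP-1 match at −154, and Pros1 held 5 GC boxes. The matches to these motifs thus differed among Plaur, F10, Procr and Pros1, while Plau and Plat, which also rose, had no window. No use of the motifs was measured.

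F3 (ENSMUSG00000028128, chromosome 3, 121723537 to 121735048, + strand) had 50.7, 27.8 and 32.9 CPM in flox vehicle and 37.6, 36.1 and 55.8 CPM in KO vehicle libraries. With MTX the flox libraries had 36.1, 49.2 and 26.6 CPM and the KO libraries 42.0, 55.0 and 38.5 CPM. The groups overlapped in both cases. The log2 difference between KO and flox was 0.22 (95% interval −0.40 to 0.83) under vehicle and 0.27 (−0.34 to 0.89) under MTX, with edgeR adjusted p of 0.600 and 0.570. With 1 library left out the first of these lay between −0.0023 and 0.51.

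Thbd and Procr, a pair of membrane proteins of the protein C pathway, had opposite signs of change. Thbd (ENSMUSG00000074743, chromosome 2, 148404466 to 148408188, − strand) had 176.7, 73.3 and 100.7 CPM in flox vehicle and 60.5, 74.2 and 61.6 CPM in KO vehicle libraries. The groups overlapped by the narrow margin between flox replicate 3 and KO replicate 2, and the flox libraries were far more spread. The log2 difference was −0.84 (95% interval −1.76 to 0.09, edgeR adjusted p = 0.159), so Thbd was not called. It was called lower when the 6 vehicle libraries were fitted alone (adjusted p = 0.0830) and without flox MTX replicate 1 (0.0824) or 4 (0.0924). With MTX, Thbd had 63.4, 130.5 and 238.0 CPM in flox and 63.8, 91.6 and 70.1 CPM in KO libraries, again overlapping, and flox MTX replicate 4 was the highest of all 12. That log2 difference was −0.94 (95% interval −1.86 to −0.01, edgeR adjusted p = 0.201).

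Procr (ENSMUSG00000027611, chromosome 2, 155751117 to 155755471, + strand) was higher in KO mice. It had 10.3, 5.03 and 7.20 CPM in flox vehicle libraries and 22.7, 22.8 and 23.5 CPM in KO vehicle libraries, without overlap and with little spread in KO. The level rose from 7.52 ± 2.66 to 23.0 ± 0.436 CPM, a log2 fold change of 1.61 (SE 0.33, edgeR adjusted p = 0.00559). With MTX it had 12.0, 17.0 and 7.63 CPM in flox and 17.8, 30.0 and 18.2 CPM in KO libraries, which did not overlap, at a log2 difference of 0.85 (SE 0.33, edgeR adjusted p = 0.150). MTX against vehicle in flox mice gave a log2 difference of 0.70 (SE 0.33, edgeR adjusted p = 0.157), which was called without flox MTX replicate 4 (0.95, adjusted p = 0.0607) and without flox vehicle replicate 1 (1.00, adjusted p = 0.0862).

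Within each library the ratio of Procr to Thbd in TPM was 0.107, 0.126 and 0.131 in flox vehicle and 0.687, 0.563 and 0.698 in KO vehicle libraries. In the MTX groups it was 0.346, 0.238 and 0.0587 in flox and 0.511, 0.600 and 0.477 in KO libraries. Every KO library was above every flox library of its treatment, and flox MTX replicate 4 was below all others (not tested).

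**Figure D3:**
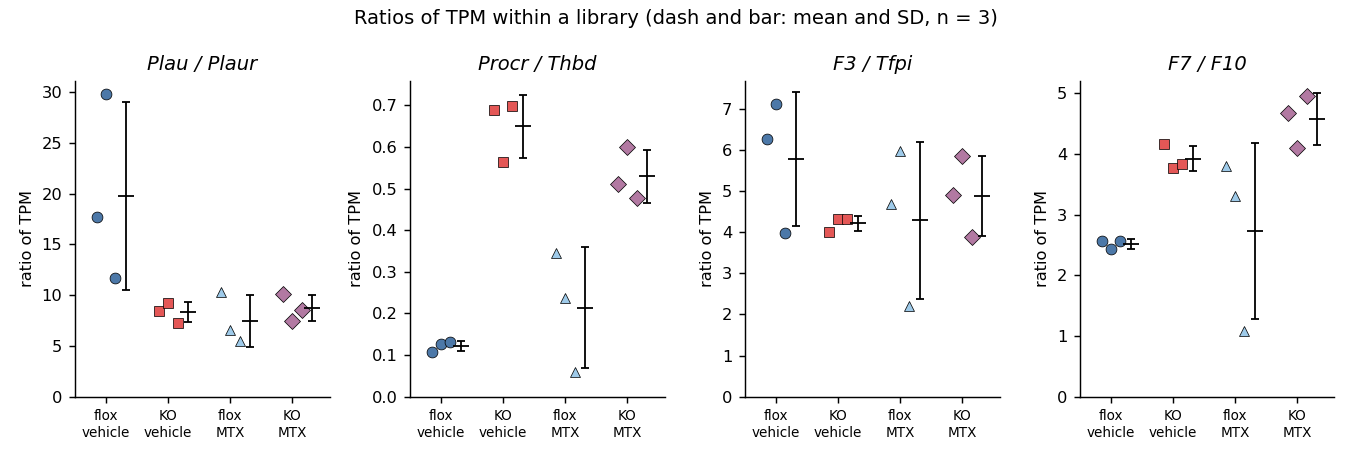
Ratio of TPM within a library (vertical axes, linear from 0) for Plau over Plaur, Procr over Thbd, F3 over Tfpi and F7 over F10, with 1 symbol per library in the 4 groups and the mean and SD (n = 3) beside them. Procr over Thbd was 0.107 to 0.131 in flox vehicle and 0.563 to 0.698 in KO vehicle libraries, while F3 over Tfpi overlapped between these groups.

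Pros1 (ENSMUSG00000022912, chromosome 16, 62854307 to 62929346, + strand), whose UTR holds 2 of the 3 seed matches shown above, had 52.5, 59.0 and 79.9 CPM in flox vehicle and 124.8, 127.5 and 147.4 CPM in KO vehicle libraries. The groups did not overlap. The level rose from 63.8 ± 14.3 to 133 ± 12.3 CPM, a log2 fold change of 1.06 (SE 0.24, edgeR adjusted p = 0.00860). Under MTX it had 118.5, 128.3 and 64.9 CPM in flox and 154.3, 188.8 and 154.3 CPM in KO libraries, without overlap, and the log2 difference was 0.67 (SE 0.24, edgeR adjusted p = 0.137). In flox mice Pros1 was called higher with MTX, with a log2 fold change of 0.70 (SE 0.24, edgeR adjusted p = 0.0648), although flox MTX replicate 4 lay within the flox vehicle range and the groups overlapped. That call was lost without flox vehicle replicate 1 (0.59, adjusted p = 0.184) or 3 (0.65, 0.197) and without flox MTX replicate 1 (0.60, 0.165) or 2 (0.53, 0.151), and also when TMM scaling was left out (0.53, 0.214).

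In KO against flox mice under vehicle, Plau and Pros1 with a seed match had log2 fold changes of 1.22 and 1.06. Of the members without a match, F10, Plaur, Procr and Plat had 2.72, 2.45, 1.61 and 0.78. F3, Thbd and Proc, also without a match, had 0.22, −0.84 and −2.44. A relation of the matches to these changes was not tested.

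Proc, the gene of protein C, which is made mainly in liver, was the only member that fell in KO mice under vehicle (ENSMUSG00000024386, chromosome 18, 32123126 to 32139570, − strand). Its counts were 66, 159 and 33 in flox vehicle and 15, 27 and 1 in KO vehicle libraries, so the groups did not overlap but the numbers were low. The level was 3.55 ± 2.44 CPM in flox and 0.649 ± 0.556 CPM in KO mice, and it fell by 2.44 on the log2 scale (SE 0.90, edgeR adjusted p = 0.0723). The call was lost with flox vehicle replicate 1 left out (−2.57, adjusted p = 0.113), with replicate 3 of that group left out (−1.74, 0.222), and likewise for KO vehicle replicates 1 (−2.51, 0.151) and 3 (−1.88, 0.141). It held with each of the other 8 libraries left out.

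With MTX, Proc had 4, 1 and 0 counts in flox and 0 counts in each of the 3 KO libraries, so that every MTX library was below every flox vehicle library. In flox mice it was called lower with MTX, at a log2 fold change of −5.33 (SE 1.14, edgeR adjusted p = 0.0149) that rests on 5 counts in the MTX group. In KO mice the level under vehicle was at least 4.97-fold higher than under MTX, taking 3 counts per library as the limit that a count of 0 allows, and edgeR did not call this difference (adjusted p = 0.346). The bound was 3.07 without KO vehicle replicate 2, 4.56 without replicate 1 and 7.27 without replicate 3, whose 1 count is itself under that limit. No fold is given between the MTX groups, where both genotypes were at or near that limit, which covers counting error only.

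Genes of the epididymis, the organ that this fat pad surrounds, were high in the flox vehicle libraries as well. The summed level of 15 epididymis markers, led by Crisp1, was 4479, 12921 and 1461 CPM of all counts in flox vehicle replicates 1, 3 and 4. It was 5.69 to 15.7 CPM in KO vehicle, 416, 5.27 and 19.4 CPM in flox MTX and 1.68 to 13.4 CPM in KO MTX libraries. The order of the flox vehicle libraries in Proc, with replicate 3 highest and replicate 4 lowest, was the order in this sum. Outside that group the order did not hold, since flox MTX replicate 1, at 416 CPM of the markers, had 4 Proc counts, fewer than the 15 and 27 counts of KO vehicle replicates 1 and 2, which lay at no more than 15.7 CPM. Of the 10 epididymis markers that were tested, 7 were called lower in KO mice under vehicle and 7 lower with MTX in flox mice. Hepatocyte markers summed to 5.65 to 20.4 CPM over 8 genes in all libraries, with Alb the most abundant. The part of epididymal RNA in the Proc difference was not tested.

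**Figure D4:**
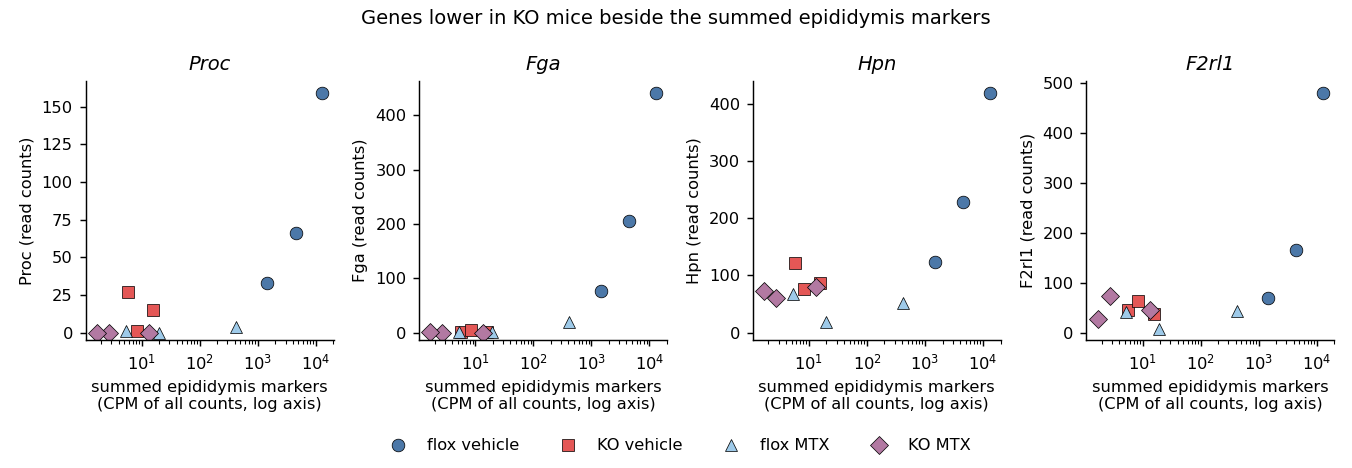
Read counts of Proc, Fga, Hpn and F2rl1 (vertical axes, linear) against the summed level of 15 epididymis markers in CPM of all counts (horizontal axes, log scale), with 1 symbol per library of the 4 groups. The 3 flox vehicle libraries lie at 1461 to 12921 CPM of the markers and hold the 3 highest counts of Proc, at 33 to 159.

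Under MTX, none of the 9 members was called between KO and flox, a comparison in which edgeR called 0% of all genes tested. At an unadjusted p below 0.05 there were 6 members, Plau, Plaur, F10, Procr and Pros1 higher and Thbd lower, as did 24.5% of all genes tested. DESeq2, at the same limits, called 5 members, namely Plau, Plaur, F10, Procr and Pros1, and 7.92% of the 34600 genes it tested, which include genes under the filter on low counts. The levels of 6 members, these 5 and Plat, did not overlap and were higher in KO libraries, as were those of 14.7% of all genes tested. The median log2 difference was 0.67 over the members and −0.05 over all genes tested. Without flox MTX replicate 2, the flox MTX library with the highest Plaur and F10, 5 members were called in edgeR, and so were 20.8% of all genes tested. Without flox vehicle replicate 3, 2 members were called (Plau and Plaur), and 5.4% of all genes tested.

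MTX against vehicle called 3 members in flox mice (Plaur and Pros1 higher, Proc lower) and none in KO mice, where edgeR called 0% of all genes tested. DESeq2 called 1 member there, Proc, and 0.798% of the genes it tested. In KO mice 1 member, Proc, had an unadjusted p below 0.05 in edgeR, as did 7.97% of all genes tested. Without KO vehicle replicate 3 Proc was called (edgeR adjusted p = 0.0719), and so were 1.1% of all genes tested. The intervals in KO mice still allow changes: the 95% interval of the log2 difference was −0.72 to 0.57 for Plaur, −1.12 to 1.30 for F10, −0.61 to 0.28 for Plat and −0.77 to 0.64 for Procr. Pros1 in KO mice had 154.3 to 188.8 CPM under MTX against 124.8 to 147.4 CPM under vehicle. Its log2 difference was 0.32 (95% interval −0.21 to 0.85, edgeR adjusted p = 0.803).

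Macrophage markers differed between the same groups. The summed level of 12 macrophage markers, led by Lyz2, was 942, 712 and 1311 CPM of all counts in flox vehicle and 5288, 6117 and 9732 CPM in KO vehicle libraries. It was 3023, 6082 and 867 CPM in flox MTX and 8272, 11531 and 6823 CPM in KO MTX libraries. All 12 markers were called higher in KO mice under vehicle, with a median log2 fold change of 2.82, and all 12 were called higher with MTX in flox mice, with a median of 1.84. Flox MTX replicates 1 and 2 were high in Plaur, Procr, Pros1 and F10 as well as in the markers when set against replicate 4, which was the lowest of the 3 in each of them.

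**Figure D5:**
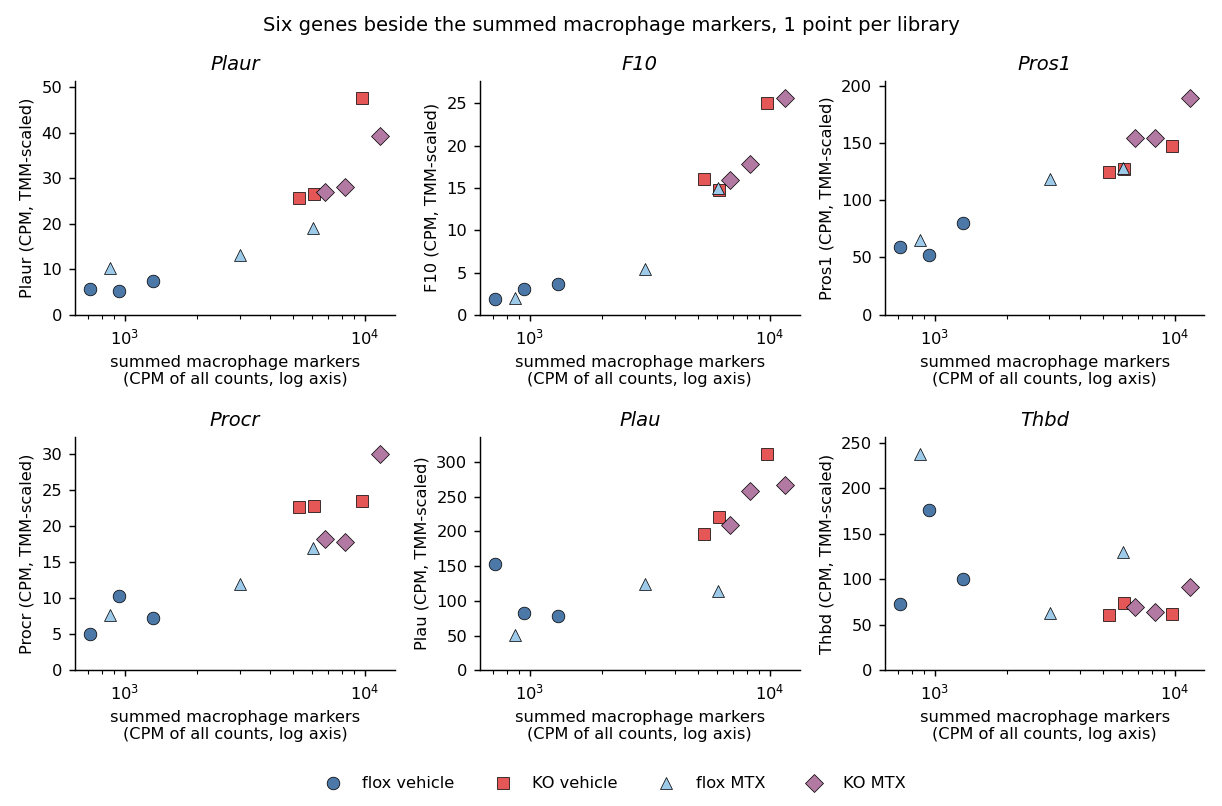
Levels of Plaur, F10, Pros1, Procr, Plau and Thbd in CPM (vertical axes, linear from 0) against the summed level of 12 macrophage markers in CPM of all counts (horizontal axes, log scale), with 1 symbol per library of the 4 groups. F10 is low, at 1.81 to 3.65 CPM, in the 4 libraries with the smallest sums and 14.8 to 25.6 CPM in the 7 with the largest, whereas the 2 highest Thbd values lie at small sums.

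Per 1000 macrophage marker counts, F10 had 3.29, 2.75 and 2.84 counts in flox vehicle and 3.07, 2.61 and 2.64 in KO vehicle libraries, so these groups overlapped on that scale. The values for Plaur were 5.55, 8.61 and 5.76 in flox vehicle and 4.88, 4.65 and 5.02 in KO vehicle libraries, which did not overlap and were lower in KO. Plau went from 60.7 to 232 counts per 1000 in flox vehicle to 32.9 to 38.7 in KO vehicle libraries, Pros1 from 56.9 to 89.7 to 15.6 to 23.8, and Procr from 5.61 to 11.2 to 2.48 to 4.33. For these 4 genes every KO vehicle library was below every flox vehicle library on this scale. The median log2 fold change of the markers under vehicle, 2.82, was above that of each of these genes. The marker sum was 712 to 1311 CPM in flox vehicle and 5288 to 9732 CPM in KO vehicle libraries. A gene of unchanged share thus also falls on this scale, and the share of all genes that separate on it was not computed. With MTX, Plau overlapped, at 18.981 to 48.16 in flox and 24.62 to 30.99 in KO libraries. Plaur (3.19 to 9.703 and 3.365 to 3.998) and Pros1 (21.46 to 61.41 and 17.43 to 22.88) overlapped as well. Procr did not, at 2.83 to 7.22 in flox and 2.13 to 2.77 in KO libraries. The part of macrophage RNA in the differences of the members was not tested.

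Endothelial markers, 10 genes led by Pecam1, summed to 453 to 672 CPM in flox vehicle, 974 to 1483 CPM in KO vehicle, 431 to 802 CPM in flox MTX and 688 to 1112 CPM in KO MTX libraries, and 9 of 10 were called higher in KO mice under vehicle. Against these markers, Thbd had 398, 118 and 170 counts per 1000 marker counts in flox vehicle and 49.2, 53.8 and 65.0 in KO vehicle libraries. These did not overlap, although its CPM did. The marker sum was itself higher in every KO vehicle library, so a gene of unchanged share also falls on this scale. With MTX, Thbd overlapped on this scale, at 69.8, 308 and 398 in flox and 63.4, 142 and 63.7 in KO libraries. Procr had 23.2, 8.11 and 12.2 in flox and 18.5, 16.5 and 24.8 in KO vehicle libraries, and Plat had 48.0, 27.7 and 46.8 in flox and 28.0, 28.9 and 41.9 in KO vehicle libraries, which overlapped for both genes. Fibroblast markers, led by Col3a1, were also higher in KO mice under vehicle, with 7 of 8 called and sums of 6673 to 11210 against 1783 to 3354 CPM. The part of either cell type was not tested.

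The other genes of the plasminogen system gave 11 tested of 15. The counts of this list and of the coagulation and receptor lists stand against 13.9% of all genes tested called higher and 17.8% lower in KO mice under vehicle. Of the 11, 4 were called higher in KO mice under vehicle and 1 lower, with a median log2 fold change of 0.40. Vtn, the gene of vitronectin, a ligand of the urokinase receptor, had 9.33, 7.75 and 9.37 CPM in flox vehicle and 22.5, 26.3 and 18.7 CPM in KO vehicle libraries, without overlap. Its log2 fold change was 1.35 (SE 0.25, edgeR adjusted p = 0.00432). Lrp1, a scavenger receptor that clears proteases from the cell surface, rose by a log2 fold change of 0.92, S100a10, a subunit of a plasminogen receptor, by 0.81, and Serpine2, a protease inhibitor, by 0.68 (edgeR adjusted p of 0.0287, 0.0106 and 0.0441). Serpine2 lost its call when flox vehicle replicate 3 (0.50, adjusted p = 0.142) or KO vehicle replicate 2 (0.65, 0.106) was left out.

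Plg, the gene of plasminogen itself, had 0 to 5 counts in every library and was not tested. Hpn, the gene of the membrane protease hepsin, was the 1 called lower, at 9.94, 16.5 and 5.68 CPM in flox vehicle and 4.33, 5.12 and 3.61 CPM in KO vehicle libraries. Its log2 fold change was −1.30 (SE 0.41, edgeR adjusted p = 0.0357) and −0.84 (adjusted p = 0.154) without flox vehicle replicate 3, the library with the most epididymis markers. It was also not called without KO vehicle replicate 3 (−1.17, adjusted p = 0.123).

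Of 22 further coagulation factors and inhibitors 14 were tested, and under vehicle 3 were called higher in KO mice and 1 lower, with a median log2 fold change of 0.69. F7 is described above. Vwf, the gene of von Willebrand factor of endothelium and platelets, had 18.7, 23.0 and 28.3 CPM in flox vehicle and 59.7, 84.4 and 67.1 CPM in KO vehicle libraries, without overlap, and a log2 fold change of 1.59 (SE 0.36, edgeR adjusted p = 0.00817). F9, the gene of factor IX, had 0, 0 and 1 counts in flox vehicle and 1, 9 and 17 in KO vehicle libraries, too few for a fold. Tfpi, the gene of the inhibitor of tissue factor and factor VIIa, was not called, at 17.5, 8.46 and 17.9 CPM in flox vehicle and 20.3, 18.04 and 27.9 CPM in KO vehicle libraries and a log2 difference of 0.60 (SE 0.29, edgeR adjusted p = 0.141), though the groups did not overlap. Without flox vehicle replicate 4, Tfpi was called higher (0.78, adjusted p = 0.0934). Fga, a fibrinogen chain, had 206, 441 and 76 counts in flox vehicle and 1, 2 and 4 in KO vehicle libraries, and its order within the 3 flox vehicle libraries was that of the epididymis markers.

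All 8 receptors and ligands around thrombin, protein C and protein S were tested, with 4 called higher in KO mice under vehicle, 1 lower and a median log2 fold change of 0.60. Axl, which binds Gas6, had 72.4, 52.3 and 84.6 CPM in flox vehicle and 203.3, 188.5 and 265.9 CPM in KO vehicle libraries, without overlap. Its log2 fold change was 1.65 (SE 0.30, edgeR adjusted p = 0.00384). F2r, the gene of the thrombin receptor PAR1, rose by a log2 fold change of 1.17 (SE 0.35, edgeR adjusted p = 0.0274) and Mertk, a receptor of macrophages for dying cells, by 0.66 (SE 0.15, edgeR adjusted p = 0.00831). Gas6, a ligand of Axl and Mertk, rose from 155 ± 13.7 to 281 ± 21.7 CPM, a log2 fold change of 0.86 (SE 0.35, edgeR adjusted p = 0.0852). The call of Gas6 was lost with any 1 of the 6 vehicle libraries left out, at adjusted p of 0.112 to 0.190, and when TMM scaling was left out (0.137). F2rl1, the gene of the receptor PAR2, was the 1 called lower, at 7.16, 18.9 and 3.23 CPM in flox vehicle and 1.91, 1.91 and 2.95 CPM in KO vehicle libraries. Its log2 fold change of −2.11 (SE 0.67, edgeR adjusted p = 0.0362) became −1.20 (adjusted p = 0.182) without flox vehicle replicate 3, and the call was also lost without KO vehicle replicate 1 (−1.98, 0.105) or 2 (−1.99, 0.106).

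With MTX in flox mice, the same lists held 6 genes called higher and 5 lower among the 33 tested, against 8.09% higher and 16.1% lower over all genes tested. Gas6 rose by a log2 fold change of 1.32 and Axl by 1.12 (edgeR adjusted p of 0.0257 and 0.0240), and the call of Axl was lost without flox vehicle replicate 3 (0.95, adjusted p = 0.105). F13a1, a factor XIII subunit carried by macrophages, rose by 1.58, F2r by 0.90 and S100a10 by 0.59 (edgeR adjusted p of 0.0399, 0.0913 and 0.0536), and each of these calls was lost when flox vehicle replicate 3, among other libraries, was left out (adjusted p of 0.150, 0.203 and 0.168). F9 went from 0, 0 and 1 to 8, 15 and 3 counts. Fga, Hpn, F2rl1, F5 and Klkb1 were lower, and the last 3 of them lost the call without flox vehicle replicate 3 (adjusted p of 0.107, 0.201 and 0.275). When the 6 flox libraries were fitted alone, Gas6, Axl, F13a1, F2r, S100a10, F5 and Klkb1 were not called, at adjusted p of 0.109 to 0.283, and neither was Pros1 (0.228). None of the lists had a gene called in the other comparisons.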

How the data were processed

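RNA from eWAT of 12 male mice was sequenced after TRIzol extraction. The labels describe polyA RNA and the methods ribosomal depletion, with different read lengths, and the sources used here do not settle which holds. The authors trimmed reads with Trimmomatic 0.36, aligned them with STAR 2.5.2b to GRCm38 and deposited whole read counts per Ensembl gene from featureCounts (Subread 1.5.2), without normalization. Strand and the handling of multimapping reads are not stated, so reads on either strand cannot be told apart, though no other counted gene overlaps the 9 described. Depth was 19495310 to 23976469 counts.

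Counts were fitted in R 4.3.3 with edgeR 4.0.16 (TMM, filterByExpr by group, glmQLFit, quasi-likelihood F-test, 1 coefficient per group, 12 libraries, 8 residual degrees of freedom), with Benjamini-Hochberg adjustment over 18702 genes. Calls needed an adjusted p below 0.1 and a fold of at least 1.5, 1 reading of the authors' limit. The standard error is the log2 fold change over the root of F. Exact permutation tests were two-sided (scipy 1.17.1). Labels do not say more than that libraries are separate samples, so p-values measure the spread between them. The 9 genes and all lists (plasminogen system, coagulation, receptors, markers of 10 cell types and tissues) were chosen with earlier results of these data known. Named are the 9 genes, Plg, Tfpi, F2r, Gas6, list genes called, and neighbours of F10, the last chosen after values were seen. 1 gene of the plasminogen list is not reported here. Alternatives were DESeq2 1.42.0, other scalings, filters and limits, a replicate block, the 6 libraries of a comparison alone and each library left out. The procedure was tested on simulated counts. Residuals of same-numbered libraries correlated with a median of 0.0353 over 12 pairs (0.0112 over 42 others). The ranges were −0.273 to 0.254 and −0.379 to 0.454. This measure showed no pairing of the mice by number, but it is too coarse to exclude any. No libraries were duplicates, since the chi-square of 12 pairs within groups was at least 14.1 times its degrees of freedom.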

Additional observations from a re-analysis of the deposited data

How the results depend on the processing

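The count of members called kept within 1.5 times of 7 for KO against flox under vehicle except with an absolute log2 fold change of at least 1.5 (4 members), and leaving out 1 library gave 6 to 8. Under MTX, where 0 members were called, DESeq2 called 5, no filter on low counts 2 and at least 10 counts in every library 2, with 0 to 5 when 1 library was left out. For MTX in flox mice, with 3 members called, at least 10 counts in every library gave 1 and the limit of 1.5 on the log2 scale 1, with 2 to 5 when 1 library was left out. For MTX in KO mice DESeq2 called 1 member, with 0 to 1 when 1 library was left out, and for the interaction DESeq2 called 1 and every left-out library 0. Whether the replicate numbers pair the mice is not known. The fit with the replicate block called 2 members for MTX in flox mice, where Pros1 lost its call (0.69, adjusted p = 0.168). Under the block Lrp1 and Gas6 in KO against flox under vehicle, and F13a1, F2r, S100a10 and Klkb1 with MTX in flox mice, also lost theirs (adjusted p of 0.106 to 0.229), while Tfpi in KO against flox under vehicle gained one (0.0993). The causes of these changes were not tested. Depth limits Proc, Fga and F9, whose counts reach 0 in some libraries, and Proc is not among the members tested when every library must hold 10 counts.

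Signs turned only for differences that had not been called. Plau with MTX in KO mice became −0.0085 with library size alone, −0.014 with at least 10 counts and −0.011 with 6 libraries, and F3 with MTX in flox mice −0.0014 with RLE, −0.16, −0.034 and −0.0078 with these 3 settings. With library size alone the interaction of Thbd became 0.098 and Tfpi in KO against flox under MTX 0.18. With the replicate block Procr with MTX in KO mice became 0.10, and Tfpi under MTX 0.047. Leaving out 1 library moved log2 values with MTX in flox mice from −0.34 to 0.26 for Plau, −0.23 to 0.30 for F3 and −0.26 to 0.73 for Thbd. With MTX in KO mice the values went from −0.13 to 0.24 for Plau, −0.27 to 0.28 for Plaur, −0.10 to 0.30 for F3, −0.14 to 0.36 for F10, −0.35 to 0.070 for Procr, −0.070 to 0.14 for Gas6 and −0.26 to 0.068 for Tfpi. Interactions went from −0.25 to 0.35 for Plau, −0.23 to 0.30 for F3 and −0.53 to 0.45 for Thbd. KO against flox went from −0.0023 to 0.51 for F3 under vehicle, and under MTX from −0.11 to 0.65 for F2r, −0.72 to 0.21 for Gas6 and −0.10 to 0.23 for Tfpi.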

Other observations

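The genes whose level was most like that of each member over the 12 libraries were found among 15516 genes by Pearson's r of log2 CPM, as a description, since the libraries share group, depth and tissue composition. For Plaur these were Il10rb, a cytokine receptor chain (r = 0.99), Slfn10-ps and Gng2, for F10 Ankdd1a, Cdk15 and Hk3, a hexokinase (0.99 for each), and for Pros1 Hhex, Rab31 and Pip4k2a (0.99 for each). Plau went most with Frmd4a (0.99), Erf and Tagln2, Procr with Ahnak2 (0.98), Irf1, a transcription factor of interferon responses, and Ifi207, and Plat with Enpp3 (0.96), Hmbox1 and Gm42528. Proc went most with Cdh16, a cadherin of kidney and other epithelia (0.99), Ppp1r36 and Pipox. Thbd (Pik3r1, 0.93) and F3 (Fnbp1, 0.89) had the weakest best match.

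Among the members, r was 0.95 between F10 and Procr, 0.94 between F10 and Plaur and 0.94 between Plaur and Pros1. Thbd had r below 0 with each of the other 8, from −0.81 with Plau to −0.0043 with Proc. The ratio of Plau to Plaur in TPM, the protease over its receptor, was 17.7, 29.9 and 11.7 in flox vehicle libraries and 8.48, 9.22 and 7.25 in KO vehicle libraries. It was 10.3, 6.58 and 5.49 in flox MTX and 10.1, 7.51 and 8.57 in KO MTX libraries, so that the flox vehicle libraries were above all others.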
